A study of Homo sapiens with 6 samples.

Results

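Cytochrome P450 enzymes are haem-containing monooxygenases that insert oxygen into lipids, vitamins, hormones and foreign chemicals. Human cells make many of them, and 10 were followed here by gene symbol: CYP1A1, CYP1B1 and CYP2S1, which are known targets of the aryl hydrocarbon receptor; CYP24A1, which breaks down active vitamin D; CYP26A1 and CYP26B1, which break down retinoic acid; and CYP4F2, CYP4F3, CYP4F11 and CYP4F12, which hydroxylate the tail of fatty acids, leukotrienes and vitamin K. Most P450 enzymes sit in the endoplasmic reticulum and take electrons from a shared reductase, POR, while CYP24A1 sits in mitochondria and is served by ferredoxin. Many of their genes are switched on by the very substrate that the enzyme removes. All 10 symbols were found among the 35784 genes of the deposited table, each in 1 row, and all 10 were tested among 20134 genes.

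RNA sequencing of total RNA had been done on NCI-H1299, an established line from a lung carcinoma that the labels class as adenocarcinoma cells. There were 3 control libraries (KO-NC, genotype control) and 3 libraries of IGF2BP3 knockout cells, IGF2BP3 being an RNA-binding protein that binds and stabilises messenger RNAs. All 6 libraries carry the same protocol text: infection with a lentiviral CRISPR vector, puromycin at 2.0 µg/ml over 48 hours, and growth as single-cell colonies. Which colony gave which library, what the control vector targeted, and whether replicates were separate cultures is not stated in the labels, so the p-values cover only how far these 6 libraries scatter, possibly for technical reasons, and a colony's own history and the loss of IGF2BP3 cannot be told apart.

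Totals ran from 67674223 to 80810319 counts per library. The detection floor was set at 3 counts per library, which equals 0.0389 to 0.0435 CPM (TMM-adjusted counts put on one common total). IGF2BP3 messenger RNA was at 54.8 ± 3.63 CPM (SD, n = 3) in controls and 29.2 ± 9.35 CPM (n = 3) in knockouts (log2 fold change -0.91, adjusted p = 0.017); without control replicate 1, 2 or 3 or knockout replicate 2 the adjusted p was 0.067, 0.05, 0.056 and 0.065, each at or above the threshold before rounding. Knockout replicate 1 stood apart from the other knockouts, with a chi-square per degree of freedom of 98.1 and 106 against 14.8 between replicates 2 and 3. The epithelial markers KRT8, KRT18 and CDH1 fell, while KRT7 and EPCAM did not pass (edgeR adjusted p = 0.39 and 0.16). The sum of these 5 markers was 9520 to 10100 CPM in controls and 5320 to 6540 CPM in knockouts. Most of it in controls was KRT8 and KRT18, with means of 4750 and 3060 CPM. The airway mucins MUC5AC and MUC5B also fell, the airway markers together from 1330 to 1460 CPM to 43.8 to 64.3 CPM. Of 25 tested genes of the Y chromosome, 20 rose. The labels name 1 source of the line for both groups; a difference in the cells from which the colonies grew and the knockout cannot be told apart in any value below. The part of these differences in the results below was not tested.

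Of the 10 P450 messages, 5 fell in the knockout cells, 0 rose and 5 did not pass the test. Those that fell were the 4 CYP4F genes and CYP24A1. Of these, CYP4F2 passed the filter on low counts through its control libraries alone. It is counted in the falls, the lower ranges and the median below, and adds little to them. Over all tested genes 11.5% fell and 8.21% rose, 19.7% in either direction, by edgeR's quasi-likelihood test at a Benjamini-Hochberg adjusted p of 0.05. The median log2 fold change was -0.48 over the 10 genes and 0.01 over all tested genes. For rises, 1 gene (CYP1A1) had an unadjusted p under 0.05, and DESeq2, which called 8.99% of all genes as rises, called 0 of the 10. Without knockout replicate 1, 5 of the 10 fell and 2 (CYP1A1 and CYP1B1) rose, where 14.5% of all genes fell and 10.8% rose. Control and knockout ranges lay apart for 7 of the 10 genes, with 6 lower and 1 higher in the knockout, against 41.3% of all tested genes, 21.5% lower and 19.7% higher. In these bulk libraries, fewer cells that express a gene and less RNA per cell cannot be told apart.

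**Figure D1:**
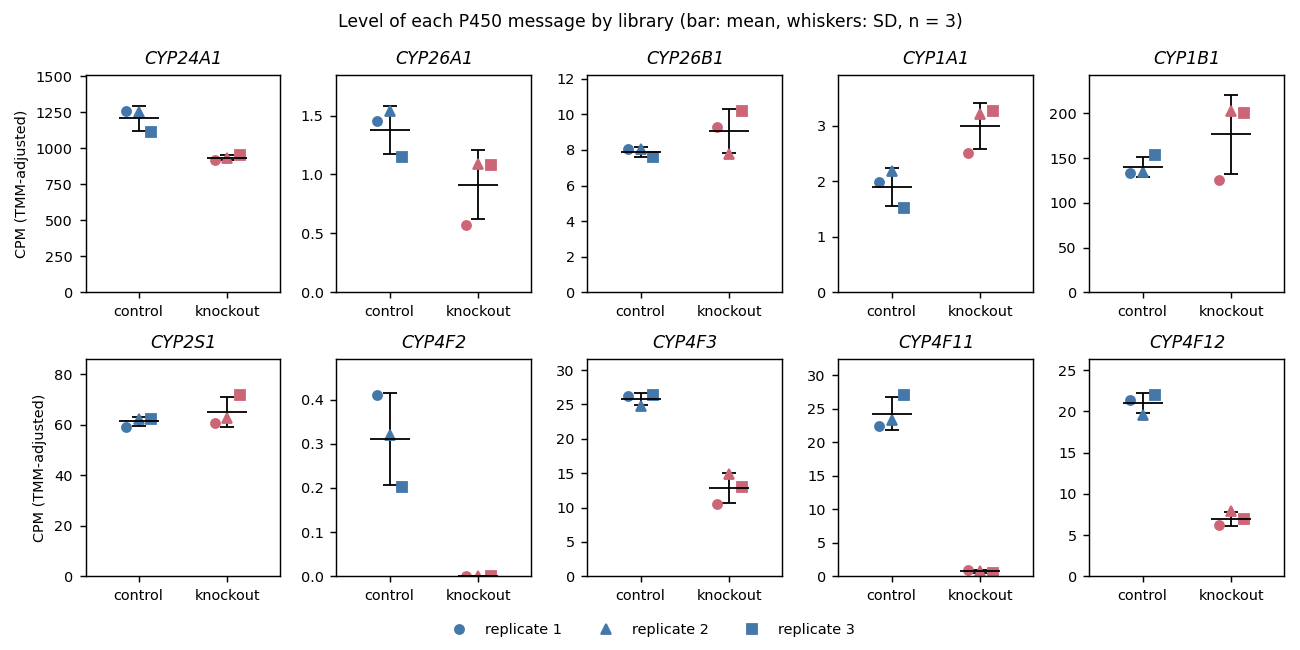
Level of each of the 10 P450 messages in CPM (linear axes from 0) by group, with 1 symbol per replicate, the mean as a bar and the SD as whiskers (n = 3). CYP4F11 ran from 22.4 to 27.1 CPM in the controls and from 0.531 to 0.964 CPM in the knockouts, while the groups of CYP1B1, CYP2S1 and CYP26B1 overlapped.

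The messages differed widely in level when compared per transcript length, in FPKM (the deposited values scaled for length and depth). CYP24A1 led with a control mean of 286 FPKM, above 99.8% of the rows of the table. It made up 80.5% to 83.7% of the summed FPKM of the 10 genes in controls and 78.0% to 82.2% in knockouts. CYP1B1 (22 FPKM) and CYP2S1 (21.3 FPKM) followed, with control ranges that overlapped. CYP4F11 (6.14), CYP4F3 (4.41), CYP4F12 (3.87) and CYP26B1 (1.53 FPKM) came next. CYP1A1 (0.526) and CYP26A1 (0.432 FPKM) had overlapping ranges, and CYP4F2 was last at 0.0916 FPKM. In the knockouts CYP4F11 moved from rank 4 to rank 9 of the 10, at 0.19 FPKM. The knockout ranges of CYP4F3 and CYP26B1, and of CYP26A1 and CYP4F11, overlapped. Of the 10 genes, 9 exceeded 3 counts in all 6 libraries, and CYP4F2 was the one below the detection floor, in the 3 knockout libraries.

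The 4 CYP4F genes lie within 294 kb of chromosome 19, with 180849 bases and other genes between CYP4F12 and CYP4F2. They encode omega-hydroxylases, which oxidise the far end of a fatty chain. CYP4F11 (ENSG00000171903, GRCh38 chromosome 19 from 15912367 to 15934867, minus strand) acts on long-chain hydroxy fatty acids and vitamin K. It had 22.4, 23.4 and 27.1 CPM in controls against 0.964, 0.765 and 0.531 CPM in knockouts. All knockout libraries were far below all controls, with 74, 54 and 41 counts left against 1685, 1616 and 1871. The mean fell from 24.3 ± 2.5 to 0.753 ± 0.217 CPM (n = 3 each), 32.3-fold (log2 fold change -5.01 with an SE of 0.23, adjusted p = 1.9e-05).

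CYP4F12 (ENSG00000186204, chromosome 19 from 15673018 to 15697174, plus strand), a fatty acid and drug hydroxylase of gut and liver, was at 21.4, 19.6 and 22 CPM in controls and at 6.17, 7.86 and 6.92 CPM in knockouts. The groups lay far apart and each was tight. The mean fell from 21 ± 1.24 to 6.98 ± 0.845 CPM, 3.01-fold (log2 fold change -1.59, SE 0.13, adjusted p = 2.5e-04). CYP4F3 (ENSG00000186529, chromosome 19 from 15640897 to 15662825, plus strand) inactivates leukotriene B4, a neutrophil attractant. It was at 26.2, 24.8 and 26.4 CPM in controls and at 10.5, 14.9 and 13 CPM in knockouts, with no overlap. The mean fell from 25.8 ± 0.874 to 12.8 ± 2.2 CPM, 2.01-fold (log2 fold change -1.01, SE 0.14, adjusted p = 0.0023).

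CYP4F2 (ENSG00000186115, chromosome 19 from 15878023 to 15898074, minus strand) is known as a liver enzyme that hydroxylates arachidonic acid and vitamin K. It had 31, 22 and 14 counts in the control libraries (0.411, 0.319 and 0.203 CPM) and 0 in each knockout library, where a count of 0 allows up to 0.0389 to 0.0425 CPM for counting error only. The knockout mean was at least 7.74-fold lower than the control mean of 0.311 ± 0.104 CPM, taking the floor of 3 counts per library (adjusted p = 0.0097). The gene passed the filter on low counts through its control libraries alone, so its place among the falls is a weaker statement than that of the other CYP4F genes. Without control replicate 1 the adjusted p was 0.052. The hepatocyte marker ALB was at 28.1, 14.4 and 0.116 CPM in controls and at 23, 0.198 and 24.8 CPM in knockouts, and so varied within both groups. The sum of 6 hepatocyte markers ran from 0.478 to 31.2 CPM in controls and from 1.17 to 27.4 CPM in knockouts. The part of such RNA in the CYP4F2 counts was not tested.

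Together the 4 CYP4F messages came to 70.4, 68.1 and 75.7 CPM in controls and to 17.6, 23.5 and 20.5 CPM in knockouts. The mix of the 4 differed as well: CYP4F11 gave 39.9%, 42.7% and 44.3% of the family's FPKM in controls and 7.61%, 4.57% and 3.62% in knockouts. CYP4F3 and CYP4F12 thereby carried most of what was left.

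**Figure D2:**
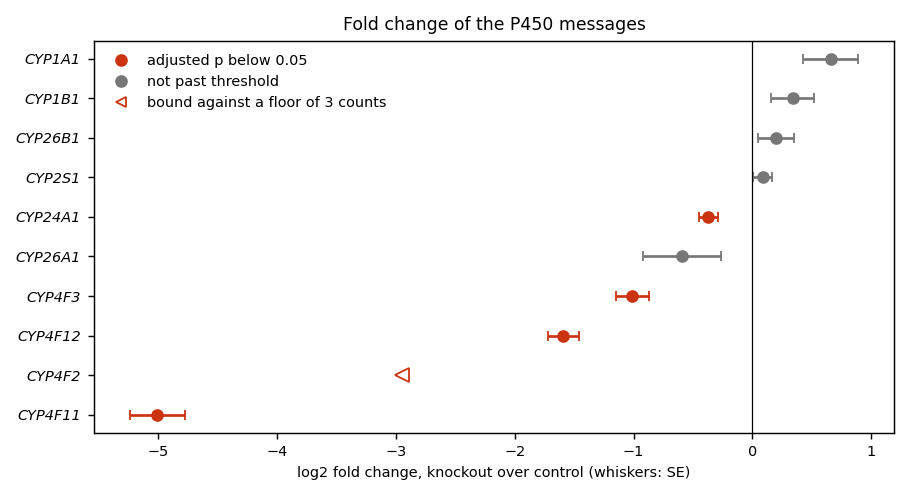
Log2 fold change of each P450 message, knockout over control, with its SE as whiskers (edgeR, 3 against 3 libraries). Red marks the 5 genes that fell, with CYP4F11 lowest, at -5.01, of the genes drawn at their fitted value. The open triangle places CYP4F2 at the bound set by a floor of 3 counts. Its fitted value of -7.51 rests on 0 counts in the knockouts and is not drawn.

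The coding sequences of the 4 are near copies, which bears on how reads were assigned. CYP4F2 and CYP4F3 were identical at 94.7% of 1560 aligned coding bases, and the other CYP4F pairs at 86.5% to 88.9%. Of the 50-base stretches of the coding sequence, 18.8% in CYP4F3 and 15.9% in CYP4F2 also occurred in another gene, against 5.71% in CYP4F12 and 1.77% in CYP4F11. The levels of CYP4F3 and the low count of CYP4F2 are therefore less certain than those of CYP4F11. CYP4F3 kept 10.5 to 14.9 CPM in the libraries in which CYP4F2 had 0.

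**Figure D3:**
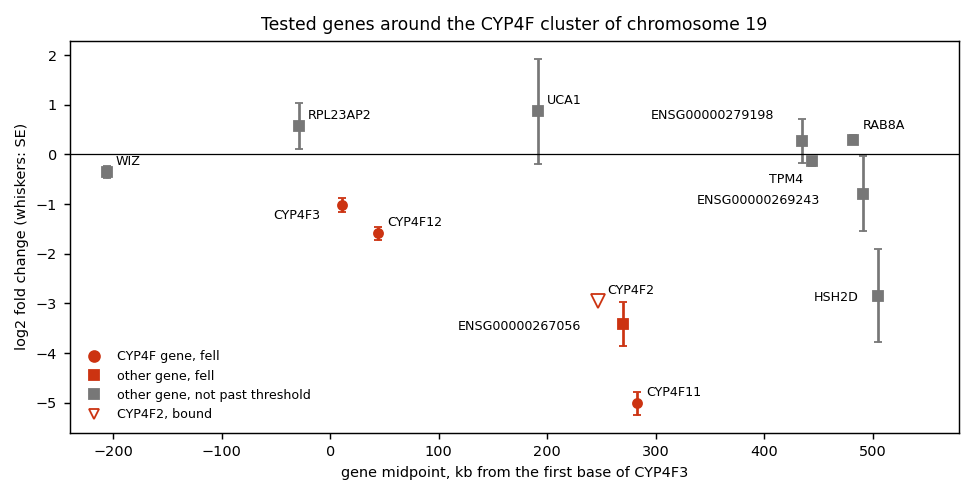
Log2 fold change (knockout over control, whiskers SE) of every tested gene within 200 kb of the CYP4F genes, by distance in kb from the first base of CYP4F3. Red marks the genes that fell, the 4 CYP4F genes and ENSG00000267056; the other genes, on both sides of 0, did not pass, and the open triangle for CYP4F2 is a bound.

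Genes around the CYP4F cluster were counted as well. The CYP4F genes span 294 kb, and 9 other tested genes lay within the span or 200 kb of it. The background over all tested genes was 11.5% falls and 8.21% rises. Of the 9, 1 fell and 8 did not pass, with a median log2 fold change of -0.14. The one that fell, ENSG00000267056, is annotated as a processed pseudogene on the minus strand, 543 bases beyond the end of CYP4F11 and in the same orientation. It was named after its values were seen. It was at 1.57, 1.99 and 2.04 CPM in controls and at 0.287, 0.113 and 0.117 CPM in knockouts (log2 fold change -3.42, adjusted p = 0.0018). Of 1296 tested genes on all of chromosome 19, 185 rose and 77 fell, with a median log2 fold change of 0.16. The log2 fold changes of the 4 CYP4F genes all lay below that median.

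The upstream stretches of CYP4F11 and CYP4F2 are shown because these messages lay furthest down and their starts resemble each other. Of the 250 bases before the outer start of CYP4F11 and before the start of CYP4F2, 167 (66.8%) were identical on alignment. The same comparison gave 168 (67.2%) for CYP4F3 and the inner start of CYP4F11. All 250 bases before that inner start lie within CYP4F11 and are annotated as exon, so this likeness includes transcribed sequence. The other pairs of CYP4F windows had 111 (CYP4F3 and CYP4F2), 107 (CYP4F3 and the outer start of CYP4F11), 105 (CYP4F2 and the inner start of CYP4F11) and 100 (both starts of CYP4F11). These lay within the range of 99 to 131, with a median of 112, over the 30 pairs of windows that were not both from CYP4F genes. Sequences are from RefSeq promoter windows on GRCh38.p14, minus strand, 5′ to 3′, at chr19:15934868-15935117 for CYP4F11, which ends at the base before its start, and at chr19:15898121-15898324 for CYP4F2, which ends 47 bases before its start. Neither printed stretch holds an exon of a P450 gene in the GENCODE annotation, and exons of other genes were not checked. Capitals mark the runs of at least 8 bases that both windows share without a gap or mismatch, 7 runs in all and the longest 20 bases. The last run is cut off in the CYP4F2 stretch, where only its first base is printed.

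CYP4F11: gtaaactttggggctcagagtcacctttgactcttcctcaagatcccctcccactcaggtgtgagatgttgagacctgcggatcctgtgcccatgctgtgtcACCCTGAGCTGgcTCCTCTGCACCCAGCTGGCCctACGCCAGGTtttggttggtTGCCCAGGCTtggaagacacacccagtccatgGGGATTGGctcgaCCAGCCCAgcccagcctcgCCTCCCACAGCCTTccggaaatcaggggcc

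CYP4F2: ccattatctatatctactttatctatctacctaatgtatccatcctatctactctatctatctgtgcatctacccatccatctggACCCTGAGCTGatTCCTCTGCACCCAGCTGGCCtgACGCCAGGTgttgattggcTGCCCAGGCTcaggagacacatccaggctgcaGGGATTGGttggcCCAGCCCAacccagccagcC

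Motif letters were searched on both strands of the 250-base windows, which were at hand for 7 of the 10 genes. A CCAAT box (CCAAT, in 32.0% of 35116 windows of all genes) read on the opposite strand lay 59 to 55 bases before the outer start of CYP4F11 and 76 to 72 and 117 to 113 bases before the start of CYP4F2. On either strand, it also lay 246 to 242 and 126 to 122 bases before the start of CYP1A1. Further matches lay 108 to 104 bases before the inner start of CYP26A1 and 47 to 43 before the inner start of CYP4F11. The letters TGANTCA, a loose form of the AP-1 site with any middle base, occurred in 6.57% of windows. They lay 165 to 159 bases before the start of CYP4F3 and 137 to 131 before the inner start of CYP4F11. Both matches read TGATTCA, without the C or G that the usual AP-1 site has in the middle. All matches before the inner start of CYP4F11 lie in exon sequence. The 250-base windows of CYP26A1 (inner start), CYP26B1, CYP1A1 and CYP4F3 held 195, 176, 82 and 18 exon bases. Whether the matches in those windows, or the stretches of CYP26A1 and CYP1A1 printed below, lie in exons was not checked. The TATA box letters TATAAA, in 10.7% of windows, lay 32 to 27 bases before the start of CYP1A1 and 31 to 26 before the inner start of CYP26A1. They also lay 248 to 243 bases before the start of CYP26B1. The spaced repeat bound by the vitamin D receptor, found in 0.0655% of windows, had no match in the windows at hand, which do not include CYP24A1. These matches describe the letters only.

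CYP24A1 (ENSG00000019186, GRCh38 chromosome 20 from 54153446 to 54173986, minus strand) is the mitochondrial 24-hydroxylase that inactivates calcitriol, the active form of vitamin D, and is known to be raised in many lung adenocarcinomas. It was at 1260, 1250 and 1110 CPM in controls and at 919, 935 and 953 CPM in knockouts. The groups did not overlap, and the knockout libraries lay within a narrow band. The mean fell from 1210 ± 83.8 to 936 ± 17 CPM, 1.29-fold (log2 fold change -0.37, SE 0.08, adjusted p = 0.02). The call was lost when single libraries were left out: the adjusted p was 0.096 and 0.098 without control replicate 1 or 2, and 0.075 and 0.057 without knockout replicate 2 or 3, with log2 fold changes from -0.34 to -0.38.

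In the vitamin D pathway, 11 of 13 listed genes were tested, and 0 rose and 2 fell (edgeR; 0 had an unadjusted p under 0.05 for a rise, DESeq2 0). Without knockout replicate 1 the rises were 1. The median log2 fold change was -0.09. Over all tested genes 11.5% fell and 8.21% rose, the background for this list and for every list and neighbour count below. Both genes that fell are known vitamin D targets. CD14, a co-receptor for bacterial lipopolysaccharide, fell from 15.9 to 6.29 CPM (log2 fold change -1.34, adjusted p = 0.0045). THBD, the anticoagulant receptor thrombomodulin, fell from 58.1 to 9.61 CPM (log2 fold change -2.59, adjusted p = 0.005). THBD was at 17.4 CPM in knockout replicate 1 and at 5.68 and 5.71 CPM in the others, and its log2 fold change was -3.35 without that library. The vitamin D receptor VDR was at 8.17, 7.58 and 7.42 CPM in controls and at 15.7, 9.79 and 8.19 CPM in knockouts, a difference that did not pass (adjusted p = 0.16) and that was widest in knockout replicate 1. CYP27B1, which makes calcitriol, was at 2.44 to 2.81 CPM in controls and at 1.35 to 2.38 CPM in knockouts (adjusted p = 0.23).

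The retinoic acid hydroxylases did not pass the test. CYP26A1 (ENSG00000095596, GRCh38 chromosome 10 from 93073475 to 93077885, plus strand), the classical retinoic acid-induced member, was at 1.45, 1.54 and 1.15 CPM in controls and at 0.573, 1.09 and 1.08 CPM in knockouts. All knockout values lay below the controls, the lowest in knockout replicate 1. The means were 1.38 ± 0.205 and 0.913 ± 0.294 CPM (log2 fold change -0.59, SE 0.33, adjusted p = 0.26). Of its 50-base coding stretches 40.2% also occurred in 1 other gene model, so its count is uncertain. CYP26B1 (ENSG00000003137, chromosome 2 from 72129238 to 72147862, minus strand), its relative of skin, testis and developing limb, was at 8.03, 8.07 and 7.58 CPM in controls and at 9.27, 7.76 and 10.2 CPM in knockouts, with overlap (log2 fold change 0.20, SE 0.15, adjusted p = 0.39). The 2 coding sequences were identical at 59.1% of aligned bases.

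A stretch before the inner start of CYP26A1 is shown for its retinoic acid response element, the DNA site of the retinoic acid receptor. Capitals mark a direct repeat with a gap of 5 bases, read here on the opposite strand as AGTTCA in both copies. The classical spelling AGGTCA was allowed for either copy, as were the less common GGTTCA and, as a further form, GGGTCA. Such repeats occurred in 0.074% of 35116 windows of all genes. The stretch is chr10:93073796-93073825 on GRCh38.p14, plus strand, 97 to 68 bases before the inner start, from RefSeq.

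CYP26A1: ttaaagaTGAACTTTGGGTGAACTaattgt

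In the retinoic acid pathway, 18 of 22 listed genes were tested, of which 1 rose and 5 fell, with a median log2 fold change of -0.24. ALDH1A3, which makes retinoic acid from retinal, rose from 14.7 to 55.1 CPM (log2 fold change 1.91, adjusted p = 3.5e-05). RARRES1, a retinoid-induced membrane protein, fell from 26.6 to 3.19 CPM (log2 fold change -3.06, adjusted p = 8.9e-04). STRA6, the cellular importer of retinol, fell from 148 to 89.8 CPM (log2 fold change -0.72, adjusted p = 0.0024). PLAAT4, another retinoid-induced gene, fell from 7.73 to 3.85 CPM (log2 fold change -1.01, adjusted p = 0.010). RARB, a receptor and itself a target of retinoic acid, and TGM2, a transglutaminase, were named after their values were seen. RARB fell by 1.01 (adjusted p = 0.014; 0.058, 0.067 and 0.053 without control replicate 1 or 2 or knockout replicate 3) and TGM2 by 1.62 on the log2 scale (adjusted p = 0.026). TGM2 was at 879 CPM in knockout replicate 1 and at 297 and 305 CPM in the other knockouts, with a log2 fold change of -2.33 without replicate 1, and its adjusted p was 0.074 to 0.078 without any one of control replicates 1 to 3 or knockout replicates 2 and 3. The count of falls was 3 without control replicate 1 or 2.

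The genes known to answer to the aryl hydrocarbon receptor, a sensor of dioxins and other planar chemicals, did not pass the test among the 10. CYP1A1 (ENSG00000140465, GRCh38 chromosome 15 from 74719542 to 74725536, minus strand), which oxidises polycyclic hydrocarbons, was at 1.98, 2.19 and 1.52 CPM in controls and at 2.51, 3.21 and 3.27 CPM in knockouts. All knockout values lay above the controls. The means were 1.9 ± 0.341 and 3 ± 0.42 CPM (log2 fold change 0.66, SE 0.23, adjusted p = 0.087). This gene passed without knockout replicate 1 (log2 fold change 0.78, adjusted p = 0.044) and under quantile normalization with limma-voom (0.77, adjusted p = 0.032). CYP1B1 (ENSG00000138061, chromosome 2 from 38066973 to 38076154, minus strand), which hydroxylates estradiol and hydrocarbons, was at 133, 134 and 153 CPM in controls and at 126, 203 and 201 CPM in knockouts. Knockout replicate 1 was the lowest of all 6 libraries and the other knockouts the highest. The log2 fold change was 0.34 (SE 0.18, adjusted p = 0.22) over all libraries and 0.53 (adjusted p = 0.0022) without that library. CYP2S1 (ENSG00000167600, chromosome 19 from 41193210 to 41207539, plus strand), an enzyme of epithelia outside the liver, was at 59.2, 62.3 and 62.4 CPM in controls and at 60.5, 62.8 and 71.8 CPM in knockouts (log2 fold change 0.09, SE 0.08, adjusted p = 0.54), the groups overlapping.

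The stretch of CYP1A1 shown holds the core of the xenobiotic response element, GCGTG, to which the receptor with its partner ARNT binds, in capitals. It lay 57 to 53 bases before the start, and the letters occur in 32.2% of windows, so that the match alone marks little. The stretch is chr15:74725569-74725598 on GRCh38.p14, minus strand, from RefSeq.

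CYP1A1: tccagggaaggagGCGTGgccacacgtaca

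In the aryl hydrocarbon receptor pathway all 12 listed genes were tested, of which 1 rose and 5 fell, with a median log2 fold change of -0.12. The receptor AHR itself was at 90, 87.2 and 82.3 CPM in controls and at 39.6, 43.2 and 45.8 CPM in knockouts, and fell 2.02-fold (log2 fold change -1.01, SE 0.08, adjusted p = 2.4e-04). TIPARP, a target that shuts the receptor off, rose from 44 to 109 CPM (log2 fold change 1.31, adjusted p = 2.9e-05). AHRR, the receptor's repressor, was at 0.623, 4.04 and 8.9 CPM in controls and at 14.2, 27.7 and 27.1 CPM in knockouts. It did not pass in the fit reported (log2 fold change 2.35, adjusted p = 0.063) but did in 8 of 16 alternatives, among them those without control replicate 1 (0.043), control replicate 3 (0.041, log2 fold change 3.31) or knockout replicate 1 (0.049), and was named after its values were seen. NQO1, a quinone reductase, fell from 1490 to 797 CPM (log2 fold change -0.90, adjusted p = 2.5e-04) and ALDH3A1, an aldehyde dehydrogenase, from 2160 to 1070 CPM (-1.02, adjusted p = 2.9e-04). UGT1A6, a glucuronosyltransferase, and SLC7A5, an amino acid transporter, also fell, by 3.08 (adjusted p = 0.0019) and 0.89 (adjusted p = 0.015) on the log2 scale. Both were named after their values were seen. SLC7A5 did not pass without knockout replicate 2 (0.061) or 3 (0.058). UGT1A6 was at 5.48 CPM in knockout replicate 1 and at 1.86 and 2.37 CPM in the others, with a log2 fold change of -3.69 without that library. It shares its exons with other UGT1A genes, so its count is uncertain. Targets of the receptor thus lay on both sides of 0, with CYP1A1, TIPARP and AHRR above it and NQO1, ALDH3A1 and UGT1A6 below it.

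**Figure D4:**
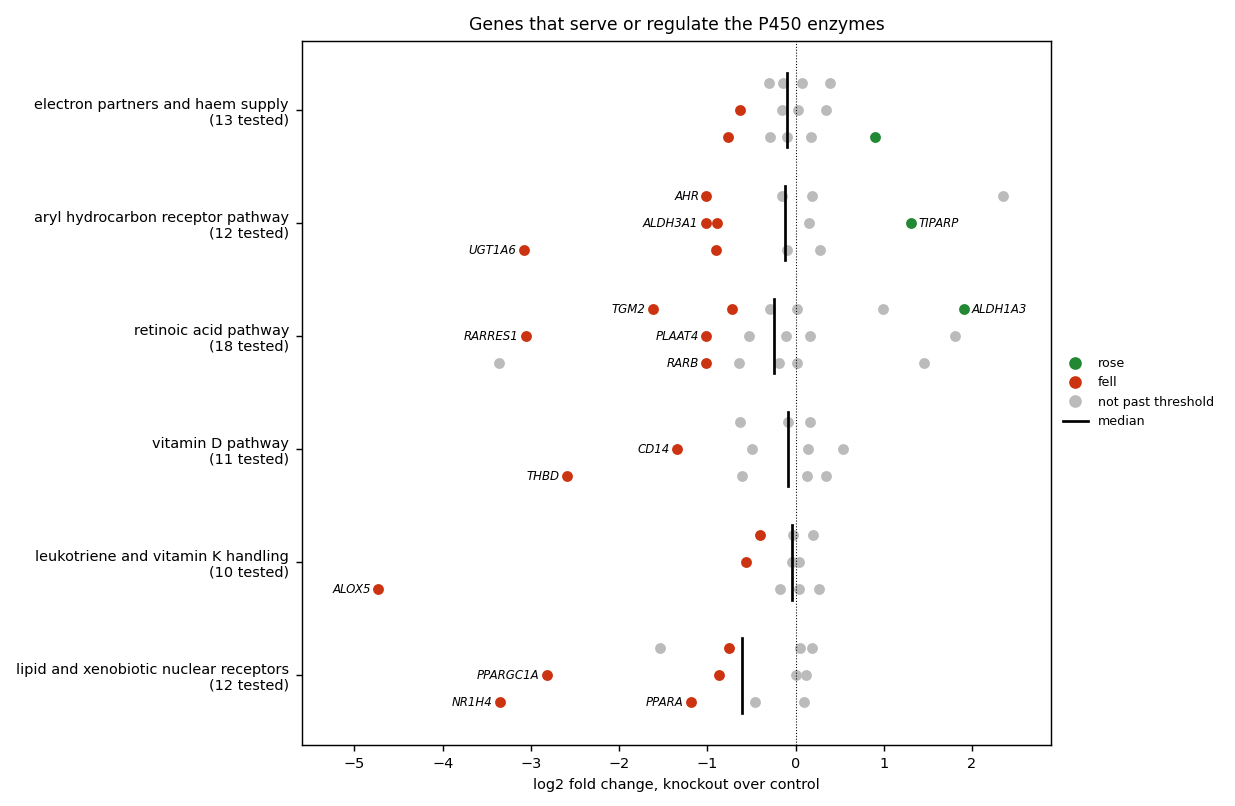
Log2 fold change of the tested genes of 6 lists that serve or regulate the P450 enzymes, by list, with genes that rose in green, genes that fell in red, the others in grey and the median as a black line. ALOX5 was lowest at -4.73 and ALDH1A3 the highest gene that rose at 1.91, and vertical position within a list has no meaning.

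The proteins that P450 enzymes need were tested as a list of 13 electron partners and haem genes, of which 1 rose and 2 fell, with a median log2 fold change of -0.10. POR, the reductase that feeds electrons to the microsomal P450 enzymes, was at 263, 250 and 266 CPM in controls and at 145, 153 and 159 CPM in knockouts. It fell 1.7-fold (log2 fold change -0.77, SE 0.07, adjusted p = 4.5e-04). CYB5B, a cytochrome b5 of the outer mitochondrial membrane, fell from 222 to 144 CPM (-0.63, adjusted p = 0.007). HMOX1, which degrades haem, was at 59.8 to 61.2 CPM in controls and at 111 to 113 CPM in knockouts and rose (0.90, adjusted p = 1.2e-04). POR and HMOX1 moved in every knockout library by about the same amount. FDX1 and FDXR, the mitochondrial partners of CYP24A1, did not pass.

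Among genes that handle the substrates of the CYP4F enzymes, 10 of 11 listed were tested, and 0 rose and 3 fell (edgeR; 0 with an unadjusted p under 0.05 for a rise, DESeq2 0), with a median of -0.04. ALOX5, the lipoxygenase that begins leukotriene synthesis, was at 7.14, 6.86 and 7.84 CPM in controls and at 0.313, 0.297 and 0.207 CPM in knockouts. It fell 26.7-fold (log2 fold change -4.73, SE 0.24, adjusted p = 2.6e-05). PTGR1, which also inactivates leukotriene B4, fell from 364 to 247 CPM (-0.56, adjusted p = 0.0086), and VKORC1, which recycles vitamin K, from 49 to 37.1 CPM (-0.40, adjusted p = 0.0093). ALOX5 is made mostly by leukocytes, and the leukocyte markers present summed to 16.7 to 24.7 CPM in controls and 9.21 to 13.5 CPM in knockouts, nearly all of it CD68, with CD3E at 0 in all 6 libraries and PTPRC at 0 in 5; their part in the result was not tested.

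Nuclear receptors and other regulators of lipid and drug-handling P450 genes formed a list of 13, of which 12 were tested. By edgeR 0 rose and 5 fell, with a median log2 fold change of -0.60. For rises, 0 had an unadjusted p under 0.05, and DESeq2 called 0. NR1H4, the bile acid receptor, fell from 9.37 to 0.919 CPM (-3.35, adjusted p = 7e-04). PPARGC1A, a coactivator of oxidative metabolism, fell from 45.6 to 6.43 CPM (-2.82, adjusted p = 0.0027), with 11 CPM in knockout replicate 1 and a log2 fold change of -3.45 without it. PPARD fell from 22.1 to 12.1 CPM (-0.87, adjusted p = 0.0066) and PPARA, the fibrate receptor, from 14.3 to 6.27 CPM (-1.19, adjusted p = 0.015; 0.059 without control replicate 1 and without control replicate 3). NR1H3, an oxysterol receptor named after its values were seen, fell by 0.75 on the log2 scale (adjusted p = 0.022; 0.073 without control replicate 2 and 0.074 without control replicate 3). The count of falls was 3 without control replicate 3, and that of rises was 1 without knockout replicate 1.

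Outside the CYP4F cluster, tested genes within 200 kb were counted for each P450 gene. Next to CYP1A1, 1 of 9 rose and 1 fell: ARID3B, a DNA-binding protein, rose from 2.37 to 8.26 CPM (log2 fold change 1.80, adjusted p = 5.5e-04), and CLK3, a kinase of splicing factors, had -0.25 (adjusted p = 0.050, above the threshold in 14 of 16 alternatives and at 0.071 to 0.16 without control replicate 1, 2 or 3 or knockout replicate 2 or 3). Next to CYP2S1, 3 of 8 rose. AXL, a receptor tyrosine kinase that starts 11684 bases from it, was at 182, 175 and 189 CPM in controls and at 638, 281 and 300 CPM in knockouts (1.16, adjusted p = 0.029; 0.092 to 0.098 without any one control library). EXOSC5, an RNA exosome subunit, had 0.56 (adjusted p = 0.017; 0.067, 0.069 and 0.05 without control replicate 1, 2 or 3), and TGFB1, a growth factor named after its values were seen, had 0.32 (adjusted p = 0.032; 0.13 and 0.12 with control replicate 1 or 2 left out, 0.062 and 0.073 with knockout replicate 2 or 3 left out). The 2, 2, 1 and 1 tested neighbours of CYP24A1, CYP1B1, CYP26A1 and CYP26B1 did not pass. CYP1B1-AS1 overlaps CYP1B1 on the other strand, and since strand use in counting is not given in the sources used here, reads of both cannot be told apart.

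The genes whose pattern lay nearest to each P450 gene were sought by the Euclidean distance of log2 CPM, centred on the control mean, over the 6 libraries. For CYP4F11 they were GGT5 (distance 0.499), a leukotriene-cleaving enzyme, and LINC00993 (0.573). CYP4F12 lay nearest to TMEM106B (0.199) and SPP1 (0.234), CYP4F3 to TMTC2 (0.164) and PAPSS2 (0.187), and CYP4F2 to LNCAROD (0.588) and TMEM26 (0.602). The CYP4F2 matches are weak, since log2 CPM held a prior count of 2, which shrinks the fold changes of low counts. LNCAROD kept 1.28, 1.42 and 1.13 CPM in the knockouts (log2 fold change -3.59), where CYP4F2 had 0. CYP24A1 lay nearest to PLA2G15 (0.0549) and PHF14 (0.0668). CYP1B1 was matched by APLP1 (0.0691) and UCP2 (0.105), CYP1A1 by LAMA3 (0.159) and KIAA1614 (0.165), and CYP2S1 by OCRL (0.0788) and PRUNE1 (0.0923). CYP26A1 lay nearest to SLC9A5 (0.171) and STARD4 (0.183), and CYP26B1 to SUPT20H (0.125) and SNAP47 (0.133).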

How the data were processed

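Total RNA of 6 NCI-H1299 libraries was sequenced and grouped by title into 3 control and 3 IGF2BP3 knockout libraries. Per the labels' protocols, the authors trimmed reads with Cutadapt, aligned them with HISAT2 and quantified genes with StringTie. Versions 2.0.4 of HISAT2 and 1.3.4d of StringTie, and the build GRCh38, are named in the submitters' processing notes. For the annotation release and the use of strand, nothing is given in the sources used here. The authors deposited whole-number counts per gene and FPKM, which they scaled for length and depth. Small counts were even in 69.9% to 71% of cases, so mates of a pair may both be counted, and floors cover counting error only.

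Genes passing filterByExpr (at least 10 counts and a total of 15) were scaled by TMM and compared by edgeR 4.0.16's quasi-likelihood test under R 4.3.3, the model holding genotype alone, Benjamini-Hochberg adjusted over 20134 genes at 0.05. All adjusted p-values are from this fit unless another is named. Each SE is the log2 fold change divided by the root of its F statistic. Alternatives used limma 3.58.1 and DESeq2 1.42.0, other filters, scalings and left-out libraries, and limma on the deposited log2 FPKM scale with pseudocounts of 1 and 0.1. Lists took up to 4 called genes with the smallest adjusted p, other P450 genes up to 6, neighbours within 200 kb up to 2 per gene, and likeness the 2 nearest genes. Some genes outside this rule are said above to be named after their values were seen. The same holds for UGT1A6, SLC7A5, VDR, KRT8, KRT18, CDH1, KRT7, EPCAM, MUC5AC and MUC5B. The genes followed and the lists were chosen with earlier results of these data known. Sequences and motifs came from RefSeq promoter windows (GRCh38.p14), coding identity and exons from GENCODE. No promoter window was used for CYP1B1, CYP4F12 and CYP24A1. One marker listed for the line is not reported here.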

Additional observations from a re-analysis of the deposited data

How the results depend on the processing

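Over the alternatives, 143 of 154 values of the 10 P450 genes kept their direction and side of the threshold, 8 no longer passed, 3 came to pass and 0 reversed. CYP4F3, CYP4F11 and CYP4F12 passed in all 16. Under the replicate block 3 of the 10 fell in place of 5 (CYP4F2 adjusted p = 0.053, CYP24A1 0.071). Deviations of same-numbered libraries correlated at 0, -0.07 and -0.06. With 3 libraries per group these values cannot decide whether the numbers pair the samples, which the labels do not say. Leaving out 1 library gave 3 to 5 falls and 0 to 2 rises, and quantile normalization with limma-voom gave 1 rise. A mean count of at least 100 removed CYP4F2 and CYP26A1 and the FPKM filters removed genes of low level. Over all genes, 1652 rose and 2311 fell; the rises were 1055 with no filter on low counts and 259 at a minimum fold of 1.5, with 671 falls, and leaving out 1 library gave 773 to 2274 rises and 1410 to 3064 falls. The replicate block gave 1146 and 1855, quantile normalization 2340 and 2313, and limma on log2(FPKM + 1) 1818 and 1793. For 62 other named genes, 872 of 983 values kept direction and side, 100 no longer passed, 10 came to pass and 1 reversed, and 32 genes were the same throughout; PRUNE1 reversed to -0.02 without knockout replicate 3, its range with 1 library left out being -0.02 to 0.10. Causes of these shifts were not tested. Depth limits CYP4F2 most, with 14 to 31 counts in the controls.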

Other observations

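Beyond the 10 genes followed, the table lists 35 P450 genes, of which 18 were tested, with 1 rise, 3 falls and a median log2 fold change of -0.17. Over all tested genes 8.21% rose and 11.5% fell. CYP3A5, a drug-oxidising enzyme of gut and lung, was at 25.4, 24 and 20.8 CPM in controls and at 2.4, 8.37 and 5.34 CPM in knockouts. It fell by 2.12 on the log2 scale (SE 0.39, adjusted p = 0.0081), in all 3 knockout libraries and by the most in replicate 1, and passed in all 16 alternatives. CYP2U1, a fatty acid hydroxylase, fell by 0.65 (adjusted p = 0.014; 0.064, 0.06, 0.057 and 0.055 without control replicate 1 or 2 or knockout replicate 2 or 3). CYP4V2, a fatty acid hydroxylase of the eye, fell by 0.44 (adjusted p = 0.029; 0.11, 0.1, 0.091 and 0.058 without the same libraries). CYP51A1, the lanosterol demethylase of cholesterol synthesis, rose by 0.32 (adjusted p = 0.020; 0.064, 0.062, 0.05, 0.072 and 0.056 without control replicate 1, 2 or 3 or knockout replicate 2 or 3).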
